A study of Homo sapiens with 80 samples.

Results

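RNA-Seq libraries of Jurkat T cells that had been spun at 300 g were compared with libraries of uncentrifuged cells. The members were chosen by treatment label, the groups being read from the sample titles, and are 16 of the 80 samples of the series. The uncentrifuged control A-Ctrl holds 4 libraries, and 12 libraries come from cells spun at 300 g for 5 min, with 4 each for a wait of 1 min (wait1min), 4 min (wait4min) and 15 min (wait15min) between the stop of the centrifuge and lysis. Jurkat is an established human leukemic T cell line (clone E6-1), so that every group shares a single cell line, its culture in serum-supplemented medium, and library preparation after depletion of ribosomal RNA, which keeps transcripts without a poly-A tail. The control was lysed directly, without a mock spin or a wait. Acceleration, pelleting, the minutes between sampling and lysis and any difference in preparation between the arms therefore cannot be told apart.

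Low-speed centrifugation is the routine way to collect suspension cells before RNA is extracted, and the comparison asks what this step changes in the RNA that is then measured. Cells that are stressed mechanically or by handling are known to switch on immediate early genes such as FOS and EGR1 within minutes, and protein damage induces chaperones of the HSP70 family. Messages of histones, ribosomal proteins and glycolytic enzymes are abundant, whereas many long messages of low GC content encode cell cycle and zinc finger proteins.

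The authors deposited raw counts of read pairs per gene. Total counts of the 16 libraries ran from 24417717 to 41220541 with a median of 28347658. The controls had 29451617, 28665290, 41220541 and 29673121 counts, and the centrifuged libraries had at least 24417717 and at most 30259450. Although the controls were sequenced as deeply, fewer genes had a count in them, between 25205 and 26196, than in the centrifuged libraries, between 26438 and 27185. Within wait1min, library 54 stood apart from its 3 replicates, with a chi-square per degree of freedom of 5.69 to 7.05 against 2.1 to 2.3 among the others. To a lesser degree this held for control library 49 (4.14 to 5.66 against at most 3.20) and for library 64 of wait15min (2.99 to 3.77 against at most 2.07). Nothing in the labels says whether libraries of a group came from separate cultures, so that p-values measure only the spread between these libraries, which may be technical.

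The labelled cell type was checked by markers, as CPM of the library total. T-lineage genes were present with all 18 of 18 markers above 1 CPM, and LCK, the kinase that starts T cell receptor signalling, was the most abundant of them (1116 in the controls and 670 after centrifugation). Their summed level was 5165, 5248, 5190 and 5214 in the controls, and 4485, 4630 and 4761 as the lowest, median and highest of the centrifuged libraries. Of the B cell markers, MS4A1, CD79B, PAX5 and CD22 stayed under 0.1 CPM in both arms and CD79A was at 54.5 and 32.5 CPM. The B cell sum was 55.6, 54, 53.5 and 55.5 in the controls and 30.6, 32.7 and 35 (lowest, median, highest) after centrifugation. Myeloid markers summed to 0.781, 0.523, 0.437 and 0.472 in the controls and at most 0.963 after centrifugation, with S100A8 at 0 and CD14 the most abundant (0.256 and 0.426). HBG1 and HBG2 were at 0, and the 6 erythroid markers, with HBA1 the most abundant (0.0232 and 0.00633), summed to at most 0.0749 in any library. EPCAM, CDH1 and DCN were at 0, and the sum of 7 epithelial and fibroblast markers, mostly COL1A1 (6.01 and 4.89), was 6.01, 6.42, 5.77 and 6.3 in the controls and 4.07, 5.1 and 6.02 (lowest, median, highest) after centrifugation. Apart from CD79A and COL1A1, no marker of these other cell types reached a mean of 1 CPM.

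After the spin and without correction, ASPM, CENPE and CENPF, mitotic genes picked for their large change, and the nuclear RNA MALAT1 were higher. All 56 tested genes of replication-dependent histones, 75 of 82 genes of cytosolic ribosomal proteins and 18 of 19 glycolysis genes were lower, as were the polymerase III RNAs. With correction for GC content and length, the log2 fold change of ASPM went from 3.39 to 1.44 and that of MALAT1 from 3.28 to 1.75. Tested with edgeR's quasi-likelihood test, which was run on 18233 genes, 7948 genes were upregulated (43.6%) and 7315 were downregulated (40.1%) at a Benjamini-Hochberg adjusted p under 0.05. A change above 1 on the log2 scale was additionally seen for 4404 upregulated (24.2%) and 788 downregulated genes (4.32%). Both numbers depend on the processing, the upregulated genes being 2034 with correction for GC content and length, and the downregulated genes 138 with total counts only, 1512 without a filter and 170 among protein-coding genes only, of which fewer (12595) were tested. For 12414 genes (68.1%), the library-scaled counts (CPM) of the 4 controls and of the 12 centrifuged libraries did not overlap. With calls this common in both directions, the number of members called in a gene list has to be read against these shares. Without library 54 of wait1min, 7952 genes were upregulated and 7339 were downregulated, 4386 and 828 of them by more than 1 on the log2 scale, and without control library 49 these numbers were 7925, 7233, 4582 and 911.

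CPM of single genes are given below after TMM scaling, which sets the bulk of the genes of each library to a common level. Its factors lay between 0.864 and 0.881 in the controls and between 1.01 and 1.07 in the centrifuged libraries. Of all calls, 52.1% were upregulated with this scaling and 63.9% with total counts only, and the median log2 fold change of all genes was 0.05 and 0.31, respectively, a shift that applies to every gene alike. Each value is a share of a library, and fewer RNA molecules of a gene per cell cannot be told apart from more RNA of other genes. Cells with less RNA and fewer cells cannot be told apart either.

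The protein-coding genes with the largest upregulation in the absence of any correction were ASPM, DST, SAMD9, CENPE, FAM111B, AKAP9, CCDC186 and CENPF. ASPM (ENSG00000066279, GRCh38 chromosome 1, 197084121 to 197146694), a protein of the mitotic spindle poles, had 37.9, 29.4, 30.5 and 27.8 CPM in the controls, and 302, 325 and 379 CPM were the lowest, median and highest values after centrifugation. The groups do not overlap, which was a condition for choosing these genes. The log2 fold change of ASPM was 3.39 with a standard error of 0.06 (edgeR, quasi-likelihood, Benjamini-Hochberg adjusted p = 2.9e-26). CENPF (ENSG00000117724, chromosome 1, 214603195 to 214664571), a kinetochore protein, rose from 61.8, 51.6, 48.6 and 49.9 CPM to between 431 and 567 CPM, by 3.17 ± 0.06 (standard error). CENPE, the kinesin motor of the kinetochore, rose from 14 ± 2.9 CPM (SD, n = 4) to 133 ± 16.9 CPM (n = 12), and library 54 was its highest with 167 CPM.

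DST (ENSG00000151914, chromosome 6, 56457987 to 56954830) encodes dystonin, a giant linker of cytoskeletal filaments. It had 6.52, 6.39, 5.59 and 5.95 CPM in the controls against 53.4, 59.6 and 64.6 CPM (lowest, median, highest) in centrifuged cells, a log2 fold change of 3.28 ± 0.06. SAMD9, an interferon-responsive antiviral factor, rose by 3.26 ± 0.08, and FAM111B, a protease of the FAM111 family, by 3.23 ± 0.07. AKAP9, which anchors protein kinase A at the centrosome and Golgi, changed from 16.8 ± 3.06 to 157 ± 16.3 CPM (3.22), and CCDC186 from 2.17 ± 0.367 to 20 ± 1.15 CPM (3.20). These 8 genes have a GC content of 35.5% (CENPE) to 41.6% (DST), below the median of 49.1% over all genes tested, and apart from FAM111B (3865 bases of exons) each is longer than the median gene of 4032 bases.

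Kinesins and centromere proteins as a list did not share the size of these changes. Of 52 tested members, 28 rose and 18 fell, with a median log2 fold change of 0.29 beside 0.05 over all genes.

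Of the noncoding genes, MALAT1 (ENSG00000251562, chromosome 11, 65497688 to 65506516), an abundant RNA of nuclear speckles, stood out by its level. The controls had 648, 552, 530 and 534 CPM of MALAT1, and the centrifuged libraries had 5196, 5499 and 5808 CPM (lowest, median, highest). Its log2 fold change was 3.28 ± 0.05 (adjusted p = 2.6e-28 by edgeR, quasi-likelihood with Benjamini-Hochberg adjustment). Larger or similar changes were measured in 4 poorly described genes, namely ENSG00000280347 (4.00, from 1.83 to 28.8 CPM), ENSG00000274422 (3.28), LINC01222 (3.22) and AL365361.1 (3.13). In a list of 14 tested long noncoding RNAs known to work mostly in the nucleus, 12 rose and 2 fell, with a median of 1.35. In contrast to the messages of ribosomal proteins and histones, long noncoding RNAs took a larger share of all counts after the spin, 2.26% ± 0.0705 (SD, n = 12) against 1.17% ± 0.0159 (n = 4). MALAT1 alone, with mean counts of 15829 in the controls and 1.5731e+05 after the spin, was a large part of this rise.

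**Figure D1:**
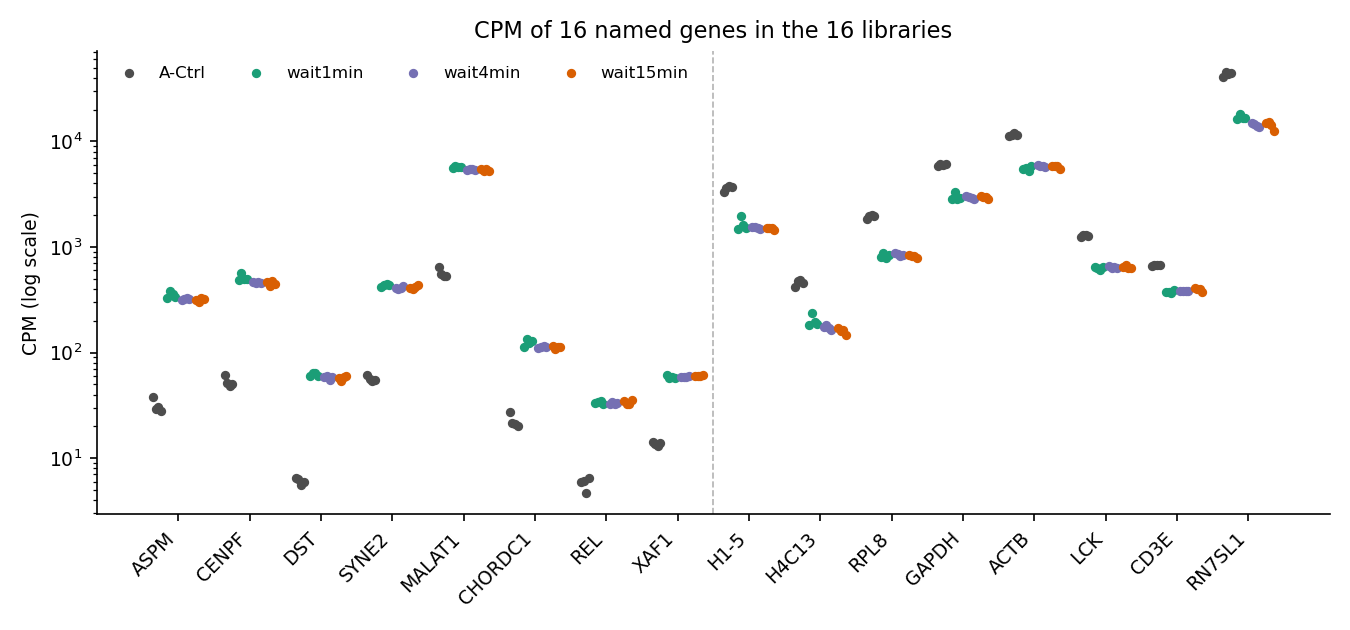
CPM (log scale, TMM-scaled) of 16 named genes in the 4 control and 12 centrifuged libraries, each point being a library and each colour a group. Left of the dashed line are genes that were higher after centrifugation, such as ASPM (27.8 to 37.9 CPM in the controls, 302 to 379 CPM after the spin), and right of it genes that were lower, such as RN7SL1 (41162 to 45636 against 12594 to 18102 CPM).

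The largest downregulation among protein-coding genes was measured in histones, namely H4C13, H4C5, H4C2, H2AC25, H4C8, H4C6, H4C11 and H4C12. Replication-dependent histone messages end in a stem-loop in place of a poly-A tail and are made during S phase. H4C13 (ENSG00000275126, chromosome 6, 27873148 to 27873534) had 422, 479, 485 and 457 CPM in the controls and 147, 174 and 235 CPM (lowest, median, highest) after centrifugation. The groups do not overlap, again by the rule of choice, and the log2 fold change of H4C13 was −1.37 ± 0.06 (adjusted p = 1.1e-17 by edgeR, quasi-likelihood with Benjamini-Hochberg adjustment). H4C5 fell from 932 ± 52.1 to 360 ± 44.3 CPM (−1.37), H4C2 from 695 ± 32.4 to 270 ± 33.6 CPM (−1.36) and H2AC25 from 288 ± 21.3 to 114 ± 5.44 CPM (−1.34). The linker histone H1-5, the most abundant member, had 3339, 3652, 3763 and 3661 CPM in the controls and 1446, 1525 and 1962 CPM (lowest, median, highest) after the spin. Over the 56 tested of 64 histone genes the median was −1.21, and 54 fell by more than 1 on the log2 scale, a size reached by 4.32% of all genes with the same processing; with both corrections the median of −0.89 lies short of that size. Copies of a histone share much of their sequence, so that the split of reads between single H4 genes is uncertain. Whether this affects their common direction was not tested.

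As these H4 genes moved together, the 250 bases before the start of 3 of them are given from RefSeq (GRCh38.p14, 5′ to 3′ on the gene's own strand, all 3 found by symbol). Capitals mark the letters CCAAT and TATAAA, which were searched on both strands and do not overlap each other.
H4C13, chr6:27873535-27873784, minus strand: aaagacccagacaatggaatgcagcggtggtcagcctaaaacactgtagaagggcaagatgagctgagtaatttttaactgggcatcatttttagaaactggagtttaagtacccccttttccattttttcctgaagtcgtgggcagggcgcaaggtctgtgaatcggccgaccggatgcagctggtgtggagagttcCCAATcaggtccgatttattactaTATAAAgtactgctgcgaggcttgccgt
H4C5, chr6:26204360-26204609, plus strand: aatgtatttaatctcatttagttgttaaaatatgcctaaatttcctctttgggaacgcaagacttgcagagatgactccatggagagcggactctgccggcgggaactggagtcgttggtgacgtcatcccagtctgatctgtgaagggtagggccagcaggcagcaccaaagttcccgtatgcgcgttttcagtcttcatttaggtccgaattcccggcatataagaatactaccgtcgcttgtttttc
H4C2, chr6:26027284-26027533, minus strand: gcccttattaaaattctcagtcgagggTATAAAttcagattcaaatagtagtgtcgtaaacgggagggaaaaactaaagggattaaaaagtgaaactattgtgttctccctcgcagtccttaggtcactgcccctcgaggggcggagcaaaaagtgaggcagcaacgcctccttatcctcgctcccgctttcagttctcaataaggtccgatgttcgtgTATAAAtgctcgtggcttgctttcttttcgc
H4C13 holds 1 match of each motif, H4C2 holds 2 of TATAAA, and H4C5 holds neither. CCAAT was found in 85.1% of the 67 windows of replication-dependent histone genes and in 32% of all 35116 windows, and TATAAA in 67.2% and 10.7%. The RefSeq start of H4C5 lies inside the gene as it was counted (from 26204552), so that its window is upstream of the RefSeq start only. A match describes the letters of a window only and says nothing of the factors that bind there.

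Several abundant small structured RNAs were lower as well. Whether recovery of such short RNAs during extraction differed between the arms was not tested. RN7SL1 (ENSG00000276168, chromosome 14, 49586580 to 49586878), the RNA of the signal recognition particle that guides nascent proteins to the endoplasmic reticulum, had 41162, 45636, 43191 and 44580 CPM in the controls and 12594, 14881 and 18102 CPM (lowest, median, highest) after centrifugation. This was the most abundant gene named here, with a log2 fold change of −1.52 ± 0.05 (adjusted p = 1.4e-20 by edgeR, quasi-likelihood with Benjamini-Hochberg adjustment). Its relatives RN7SL4P (−1.65) and RN7SL3 (−1.58) fell too, but share sequence with RN7SL1, so that their counts are uncertain. All 4 of the 13 polymerase III RNAs that could be tested fell (median −1.39), and of a list of 14 tested spliceosomal snRNAs 13 did (−1.16). The wider annotated class of 122 tested snRNA genes went the other way, with 52.5% higher, 22.1% lower and a median of 0.72 that turned to −0.44 with both corrections. RNU4-2, an RNA of the spliceosome that is counted beside the similar RNU4-1, fell from 146 ± 5.26 to 52.7 ± 17.1 CPM. SNORD3B-1 (−1.47) is a copy of the U3 RNA, which takes part in the cleavage of ribosomal RNA precursors, and ENSG00000262202 (−1.55) is a noncoding gene on the same chromosome. Of 116 tested small nucleolar and Cajal body RNAs, 51 fell and 17 rose, with a median of −0.28, and the share that fell was near the 40.1% of all genes.

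Genes of protein synthesis fell in large part. RPL8, a protein of the large ribosomal subunit, went from 1825, 1987, 1995 and 1957 CPM in the controls to 784, 830 and 878 CPM (lowest, median, highest), with a log2 fold change of −1.22 ± 0.03. The most abundant ribosomal protein gene, RPLP0, fell by 1.07 on the same scale. The median over 82 tested cytosolic ribosomal proteins was −0.81, with 75 lower and 5 higher. Mitochondrial ribosomal proteins had a median of −0.64 (55 of 77 lower, 18 higher), among them MRPL37 (−0.95), while MRPL42 rose from 46.9 ± 6.69 to 130 ± 5 CPM (1.46, but −0.53 when corrected for both). Of 67 initiation and elongation factors 40 fell and 23 rose (median −0.47). EEF1A1, which brings aminoacyl-tRNA to the ribosome, fell from 8541 ± 138 to 5110 ± 358 CPM, and EIF5B, which joins the ribosomal subunits, rose from 43.7 ± 6.06 to 203 ± 10.5 CPM (2.22, or 0.73 with both corrections). Among 18 aminoacyl-tRNA synthetases of the cytosol, 12 fell and 5 rose (median −0.45), IARS1 changing by −0.19 with TMM scaling, by 0.08 with total counts only and by −1.21 when corrected for GC content and length. Of the genes that host snoRNAs, 15 of 25 fell and 5 rose, SNHG29 by −0.82, with a median of −0.25 that became 0.01 with total counts only.

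In energy metabolism, glycolysis showed the most uniform direction without correction. GAPDH (ENSG00000111640, chromosome 12, 6534512 to 6538374), often used as a reference gene, had 5894, 6102, 6036 and 6078 CPM in the controls. After centrifugation its lowest, median and highest values were 2828, 2942 and 3333 CPM, all below the controls, and its log2 fold change was −1.02 ± 0.03 (adjusted p = 7.5e-23 by edgeR, quasi-likelihood with Benjamini-Hochberg adjustment). Corrected for GC content and length, the change of GAPDH was −0.42. TPI1, a neighbouring step of the pathway, fell by 1.14, and the median of the 19 genes was −0.91. Nuclear genes of oxidative phosphorylation were lower in 61 and higher in 11 of 79 cases (median −0.59), as shown by ATP5F1B, a subunit of the ATP synthase (−1.02), and by NDUFA5, a complex I subunit that rose (1.49) but turned to −0.59 when corrected for GC content and length. Of 23 cholesterol synthesis genes, 16 fell and 5 rose (median −0.61), with FDFT1, the squalene synthase, falling by 0.83 and SC5D, a sterol desaturase, rising from 10.3 ± 1.94 to 39.8 ± 2.36 CPM (1.95, or 0.09 without a call when corrected for GC content and length). In the proteasome 25 of 38 genes fell and 12 rose (median −0.61), PSMD2 falling by 0.96 and PSMA2 rising by 1.86 (0.43 with both corrections).

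Without correction the 13 protein genes of the mitochondrial genome changed little, with 7 lower and 3 higher and a median of −0.08 that became 0.18 with total counts only and 0.03 with protein-coding genes only. MT-CO1, a core subunit of cytochrome c oxidase, had 4270, 4389, 4350 and 4340 CPM in the controls and 3882, 4081 and 4396 CPM (lowest, median, highest) after the spin, so that the groups overlapped. Its log2 fold change of −0.08 likewise turned to 0.19 with total counts only and to 0.03 with protein-coding genes only. MT-ND6, the only protein gene on the light strand, differed from the others, with 140 ± 17.3 CPM in the controls and 332 ± 28.5 CPM after centrifugation (1.25 ± 0.07, or 0.38 with both corrections). As a share of all counts, RNA of the mitochondrial genome rose from 2.07% ± 0.0443 (n = 4) to 2.35% ± 0.0912 (SD, n = 12).

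Lists of cell shape and of the response to force differed in how uniformly they moved, actin genes being mostly lower and the others divided. Of 32 actin cytoskeleton genes 26 fell and 5 rose (median −0.77). ACTB (ENSG00000075624, chromosome 7, 5526409 to 5563902), the cytoplasmic actin, fell from 11194, 11583, 11937 and 11499 CPM to 5301, 5809 and 5927 CPM (lowest, median, highest), a log2 fold change of −1.02 ± 0.03 (−0.47 with both corrections), while CAPZA1, which caps filament ends, rose by 1.53 (0.51 with both). In the nuclear lamina and the complex that links it to the cytoskeleton, 7 of 16 genes rose and 9 fell, with a median of −0.26 that became 0.00 with total counts only. Over all genes 43.6% rose and 40.1% fell, to be set beside this list and the channels below. SYNE2, a nesprin of the outer nuclear membrane and a long message (32377 bases of exons), rose from 62, 55.6, 53.2 and 54.8 CPM to between 403 and 448 CPM (2.90 ± 0.04), and LMNB2, a B-type lamin, fell by 0.79. Among 18 mechanosensitive and volume-regulated channels, 7 rose and 8 fell, with a median of −0.03 that turned to 0.23 with total counts only and to 0.07 with protein-coding genes only, and that was −0.44 (11 of 18 lower) when corrected for length alone. PIEZO1, a channel opened by membrane stretch, had 634, 634, 614 and 620 CPM in the controls and 567, 603 and 628 CPM (lowest, median, highest) in centrifuged cells, which overlap. Its log2 fold change of −0.07 (adjusted p = 0.014 by edgeR, quasi-likelihood with Benjamini-Hochberg adjustment) became 0.19 with total counts only, 0.04 with protein-coding genes only and −0.60 when corrected for length alone. LRRC8C, a subunit of the volume-regulated anion channel, rose by 2.04.

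Of 25 genes of the T cell receptor and its proximal signalling, 19 fell and 4 rose (median −0.69). LCK fell from 1243, 1313, 1286 and 1278 CPM to 610, 638 and 669 CPM (lowest, median, highest), and CD3E, a chain of the receptor complex, fell by 0.80. PTPN22, a phosphatase that dampens the same pathway, rose from 7.71 ± 1.45 to 33.8 ± 2.5 CPM (2.14, or 0.47 with both corrections). Of the 18 T-lineage markers 13 fell and 4 rose (median −0.38).

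Of 24 immediate early genes 19 were lower and 2 higher without correction (median −0.51), and 13 and 7 with both corrections (−0.20). FOS had 1, 1.25, 0.703 and 0.999 CPM in the controls and 0.826, 1.26 and 1.9 CPM (lowest, median, highest) after the spin, and its difference did not pass the threshold (log2 fold change 0.36 ± 0.19, adjusted p = 0.081 by edgeR, quasi-likelihood with Benjamini-Hochberg adjustment), although it did with both corrections (0.96). At about 1 CPM its counts limit what can be detected. EGR1 fell from 10.1 ± 0.553 to 7.12 ± 0.404 CPM (−0.50, but 0.04 without a call with both corrections), IER2 from 115 ± 5.71 to 61 ± 2.51 CPM (−0.92, or −0.30 with both corrections) and DUSP2, a phosphatase of MAP kinases, from 80.4 ± 3.24 to 37.8 ± 2.24 CPM (−1.09). JUN changed by −0.18 with overlapping groups, by 0.08 with total counts only and by 0.37 with both corrections.

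Chaperones divided into 8 higher and 9 lower of 18 (median −0.61). Over all genes 43.6% were higher and 40.1% lower, so that this split is not particular to chaperones. HSPA1B, an inducible HSP70, had 17.5, 20.1, 17.9 and 18.2 CPM in the controls and 9.75, 10.6 and 11.3 CPM (lowest, median, highest) after centrifugation (−0.80, or −0.17 with both corrections), and its near-identical copy HSPA1A stayed at 0.368 and 0.251 CPM, without a call. How reads were split between these copies is uncertain. DNAJB1, the HSP40 partner, fell by 0.97 and HSP90AB1, the most abundant chaperone of the list, by 0.77, whereas CHORDC1, an HSP90 co-chaperone, rose from 22.4 ± 3.19 to 117 ± 8.05 CPM (2.38, or 0.50 with both corrections). NF-kB feedback genes were lower in 9 and higher in 4 of 14 cases (median −0.54), REL rising from 5.77 ± 0.788 to 33.4 ± 0.997 CPM (2.55, or 0.86 with both corrections) and RELA falling by 0.81 (0.29 with both corrections). Of 24 genes of the ATF4 and unfolded protein responses, 18 fell and 5 rose (median −0.71), among them the ER chaperone CALR (−0.97) and the cystine transporter SLC7A11 (2.83, or 0.86 with both corrections). Among 18 hypoxia and NRF2 genes, 9 fell and 6 rose (median −0.29), which is also to be read beside the shares over all genes. NFE2L2, the factor NRF2 itself, rose by 1.87 and the peroxiredoxin PRDX1 fell by 0.52.

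Zinc finger genes were among the few lists with a median above that of all genes. Of 381 tested ZNF genes 240 rose and 119 fell, with a median of 0.55, and ZNF117 rose from 4.01 ± 1.06 to 35.4 ± 2.02 CPM (3.16, or 1.03 with both corrections). SR splicing factors and CLK kinases, which set splice site choice, had a median of 0.52 (14 of 19 higher, 3 lower), with SRSF10 rising by 1.66 (0.15 with both corrections) and SRSF2 changing by −0.09, or 0.17 with total counts only and 0.01 with protein-coding genes only. DNA replication genes were lower in 21 and higher in 13 of 34 cases (median −0.32), MCM7 of the replicative helicase falling by 0.90 and RFC1 of the clamp loader rising by 1.73 (0.63 with both corrections). Large chromatin regulators were lower in 14 and higher in 11 of 28 cases, with a median of −0.04 that turned to 0.22 with total counts only and to 0.07 with protein-coding genes only, and that was −0.68 (21 of 28 lower) when corrected for length alone. Without correction 40.1% of all genes were lower and 43.6% higher. KMT2C, a histone methyltransferase whose exons add up to 53322 bases, rose from 112 ± 7.99 to 352 ± 11.3 CPM. Its log2 fold change was 1.65, or 0.43 when corrected for length alone and 0.74 with both corrections. SMARCA4, the ATPase of a chromatin remodelling complex, fell by 0.71.

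GC content moved with these changes. Across the 17952 genes with a known GC content, the log2 fold change had a Spearman's rho of −0.68 with GC content, and across 18233 genes it was 0.11 with exon length, as a description of genes that share libraries and are not independent. Among the 10% of genes with the lowest GC content (up to 39.6%) 92.5% were upregulated, with a median log2 fold change of 1.79. Among the 10% with the highest (from 61.5%) 73.9% were downregulated, with a median of −0.62. By length, 64% of the longest 10% of genes were upregulated (median 0.55), and 45.6% of the shortest 10% (median 0.38), but genes between them had lower medians, down to −0.27 for those of 2304 to 3151 bases, so that a rho of 0.11 does not describe the relation.

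The libraries show the same when each is taken alone. Per 10 points of GC, log2 CPM rose by 0.628, 0.739, 0.69 and 0.749 in the 4 controls, and this slope was −0.114, −0.066 and −0.0316 (lowest, median, highest) in the 12 centrifuged libraries. Every control thus had more counts in GC-rich genes, and no centrifuged library did. The means, 0.701 ± 0.0551 (SD, n = 4) and −0.0695 ± 0.0273 (n = 12), differed (p = 0.000549 by exact permutation, two-sided, and 0.000611 after adjustment over 10 measures), and no smaller p is possible in this design. The slope on length was 1.00 and 1.03 per doubling, with overlapping groups (exact permutation test, p = 0.0011, adjusted p = 0.0011).

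Shares of counts taken by classes of RNA separated the arms as well. Polymerase III RNAs took 3.81% ± 0.158 (SD, n = 4) of the counts in the controls and 1.59% ± 0.142 (n = 12) after centrifugation. Most of this share was RN7SL1, with mean counts of 1.2253e+06 in the controls and 4.3478e+05 after centrifugation. For histones the shares were 3.06% ± 0.114 and 1.58% ± 0.109, and for ribosomal protein genes 6.36% ± 0.0849 and 4.25% ± 0.181. snoRNAs fell from 0.215% to 0.111% and snRNAs from 0.0349% to 0.023%. SNORD3A, with mean counts of 49532 in the controls and 19018 after centrifugation, made up most of the snoRNA share. The 10 most abundant genes of a library together held 8.32% ± 0.184 in the controls and 5.25% ± 0.19 in centrifuged cells. RN7SL1 is among them, so that a large part of this fall is the one already given for polymerase III RNAs. In all 8 shares of counts that were measured, including those of long noncoding RNAs and of the mitochondrial genome, the groups did not overlap, and exact permutation gave p = 0.000549 (0.000611 when adjusted) for each of them. This is the smallest p that the design allows. The classes were chosen with earlier results of these data known, and shares of the same total depend on each other. These p-values are therefore not separate pieces of evidence. What part base composition and these shares have in the change of any single gene was not tested beyond the corrections described next.

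**Figure D2:**
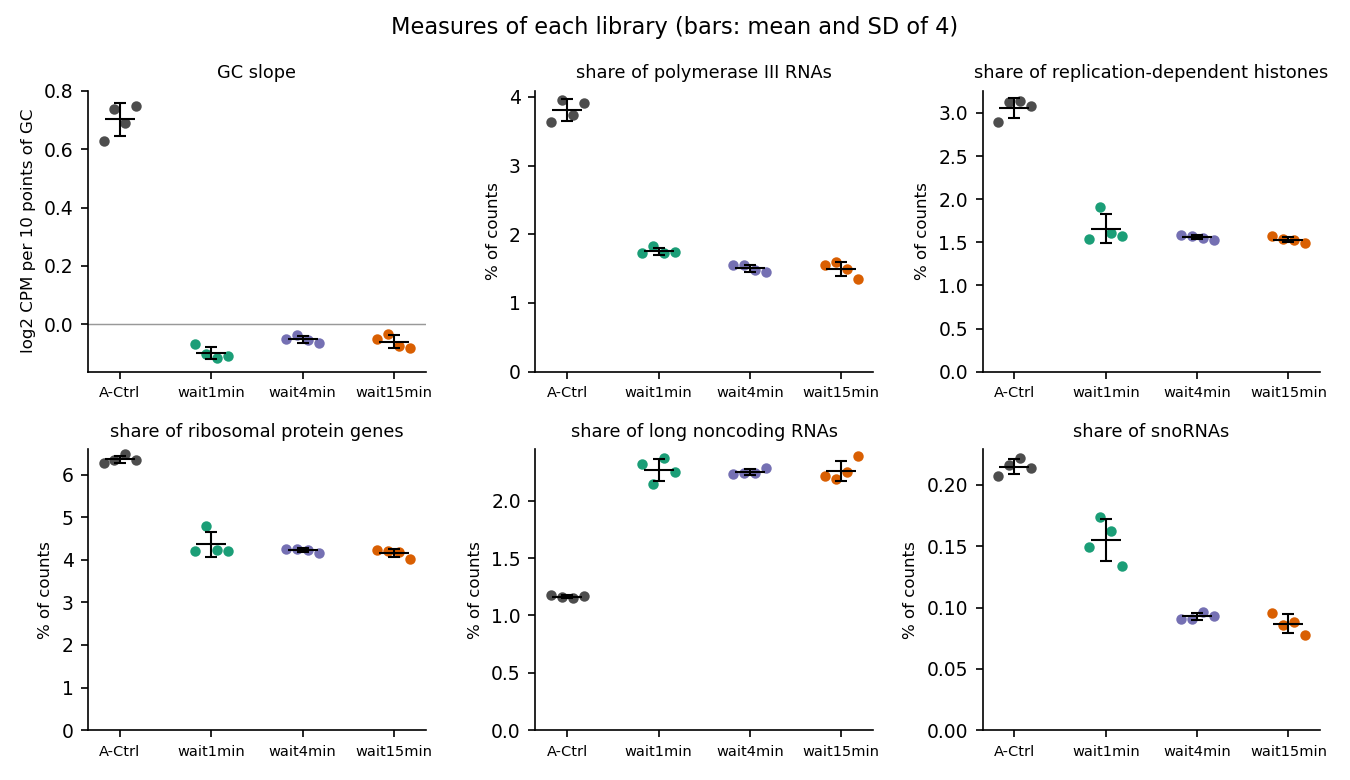
Slope of log2 CPM on GC content (per 10 points) and shares of counts (%) of 5 classes of RNA in each library, by group, with bars for the mean and SD of 4 libraries. The 4 controls have slopes of 0.628 to 0.749 and the 12 centrifuged libraries of −0.114 to −0.0316, and the snoRNA share of wait1min (0.134% to 0.174%) lies between those of the control and of the later waiting times.

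To correct for GC content, exon length or both, the smooth curve of each library's log2 counts against the property was removed inside the same test. With the curve for GC content, 6549 genes were upregulated (35.9%) and 7422 were downregulated (40.7%). With length alone these were 6920 (38%) and 8448 (46.3%), and with both 6559 (36%) and 7399 (40.6%). The number of calls was thus similar, but the size of the upregulation was not, since with both corrections 2034 genes rose (11.2%) and 654 fell (3.59%) by more than 1 on the log2 scale. Afterwards rho with GC content was −0.01 and with length −0.03, which follows from the removal of the curves and is no separate result. Of the 10% of genes lowest in GC content 40.4% were then higher and 34.3% lower, and of the 10% highest in it 30.2% and 45.2%.

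**Figure D3:**
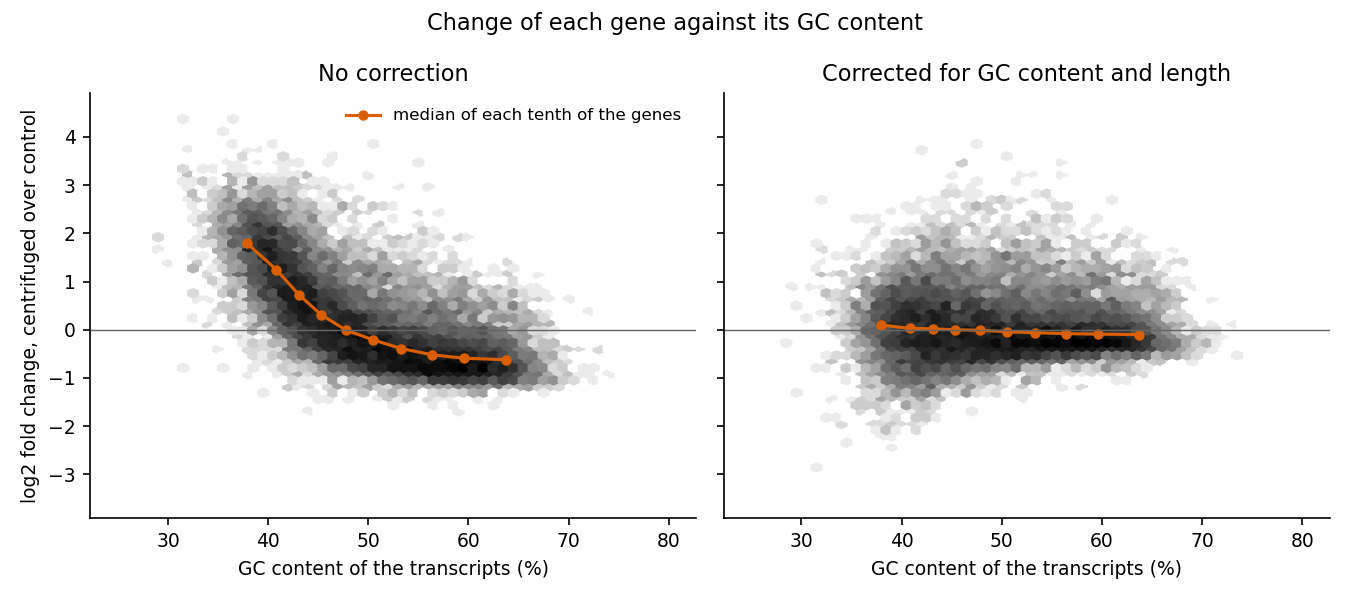
Log2 fold change (centrifuged over control) of each gene against the GC content of its transcripts (%), without and with correction for GC content and length, darker cells holding more genes. Orange points are the medians of 10 equal groups of genes by GC content, which fall from 1.79 to −0.62 without correction and lie between 0.1 and −0.1 with it. The flat course with correction follows from the correction itself.

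Single genes were affected differently. Of the 7948 genes upregulated without correction, 5062 remained so with both (63.7%), 1385 lost the call and 1501 turned to downregulated. Of the 7315 downregulated genes 5273 remained so (72.1%), 1471 lost the call and 571 turned to upregulated. With length alone, 85.6% of the upregulated and 98.4% of the downregulated genes kept their call, against 63.9% and 72.8% with GC content alone. ASPM, DST and MALAT1 stayed upregulated with both corrections, at 1.44, 1.70 and 1.75. So did SAMD9 (1.40), CENPE (1.24), FAM111B (1.60), AKAP9 (1.13), CCDC186 (1.23) and CENPF (1.71). ZNF207 went from 0.64 to −1.05, NDUFA5 from 1.49 to −0.59 and MRPL42 from 1.46 to −0.53.

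With both corrections the largest upregulation of protein-coding genes was found in GPR135, CMTM1, GOLGA8B, TPM2, ARHGAP11B and XAF1. GPR135 (ENSG00000181619, chromosome 14, 59429022 to 59465342), an orphan G protein-coupled receptor, had 1.85, 1.81, 1.69 and 1.11 CPM in the controls and 11.2, 12.5 and 14.6 CPM (lowest, median, highest) after the spin. Its log2 fold change was 3.27 ± 0.10 with correction and 2.96 without (adjusted p = 3.9e-23 with correction by edgeR, quasi-likelihood with Benjamini-Hochberg adjustment). CMTM1 rose by 2.84, GOLGA8B, a golgin with close copies, by 2.58, TPM2, a tropomyosin that binds actin filaments, by 2.29, and ARHGAP11B, a partial duplicate of ARHGAP11A, by 2.22. Counts of GOLGA8B and ARHGAP11B are uncertain because of their copies. XAF1, an antagonist of the apoptosis inhibitor XIAP, had 14.1, 13.7, 13 and 13.8 CPM in the controls and between 57.1 and 61.6 CPM after centrifugation, and its change was 2.13 without and 2.18 with correction. These 6 genes have a GC content of 45.1% to 58.2%, higher than the genes with the largest upregulation in the absence of a correction.

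Among protein-coding genes under the rule of choice, ARPC5, H2AC6, H2BC9, CMC1, ATXN7L3B and MRPL22 had the largest downregulation with both corrections. ARPC5 (ENSG00000162704, chromosome 1, 183620846 to 183635783), a subunit of the actin-nucleating Arp2/3 complex, had 240, 236, 251 and 235 CPM in the controls and 174, 192 and 211 CPM (lowest, median, highest) after the spin, a change of −0.33 before and −2.06 after correction. H2AC6 (−2.06) and H2BC9 (−2.05) are histone genes whose annotated transcripts have an unusually low GC content for histones, 41.9% and 41.6% beside a median of 57.4%. CMC1, an assembly factor of cytochrome c oxidase, was at 16.7 ± 0.919 and 16.6 ± 1.32 CPM and had no call without correction (−0.01, or 0.25 with total counts only), but was downregulated with it (adjusted p = 6.9e-24). ATXN7L3B changed by −0.34 and −1.97, and MRPL22 by −0.61 and −1.91. For genes like CMC1 the corrected call rests on the curve of other genes of equal GC content and not on a difference in CPM.

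Most lists kept the sign of their median when both corrections were made, though nearer to 0. Downregulated with both corrections were all 56 histones (median −0.89), and of ribosomal proteins 75 of 82 (−0.56), actin cytoskeleton genes 29 of 32 (−0.53), nuclear genes of oxidative phosphorylation 69 of 79 (−0.51), glycolysis genes 16 of 19 (−0.45) and cholesterol synthesis genes 18 of 23 (−0.39), beside a median of −0.03 and 40.6% downregulated over all genes. Proteasome subunits became more uniform, with 35 of 38 downregulated against 25 before, and mitochondrial ribosomal proteins likewise, with 70 of 77 against 55. For small RNAs the median moved further from 0, to −1.64 for polymerase III RNAs, −1.38 for snRNAs and −0.69 for small nucleolar and Cajal body RNAs, with 75 of 116 of the last downregulated. The median of SR splicing factors and CLK kinases reversed, from 0.52 to −0.14, with 10 of 19 downregulated and 7 upregulated. Over all genes these shares were 40.6% and 36%. The median of nuclear long noncoding RNAs fell from 1.35 to 0.35, with 9 of 14 upregulated and 5 downregulated, and that of ZNF genes from 0.55 to 0.21 (206 of 381 upregulated). Mechanosensitive and volume-regulated channels turned from −0.03 to 0.17, with 12 of 18 upregulated, PIEZO1 among them (0.23). Corrected medians of the other lists were −0.19 for chaperones, −0.19 for NF-kB feedback genes, −0.40 for ATF4 and unfolded protein response genes, −0.20 for hypoxia and NRF2 genes, −0.30 for T cell receptor signalling, −0.20 for T-lineage markers, −0.29 for DNA replication, −0.31 for the mitochondrial genome (11 of 13 downregulated), −0.48 for initiation and elongation factors, −0.45 for aminoacyl-tRNA synthetases, −0.16 for snoRNA hosts, −0.18 for the nuclear lamina, 0.10 for kinesins and centromere proteins, and 0 for large chromatin regulators.

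**Figure D4:**
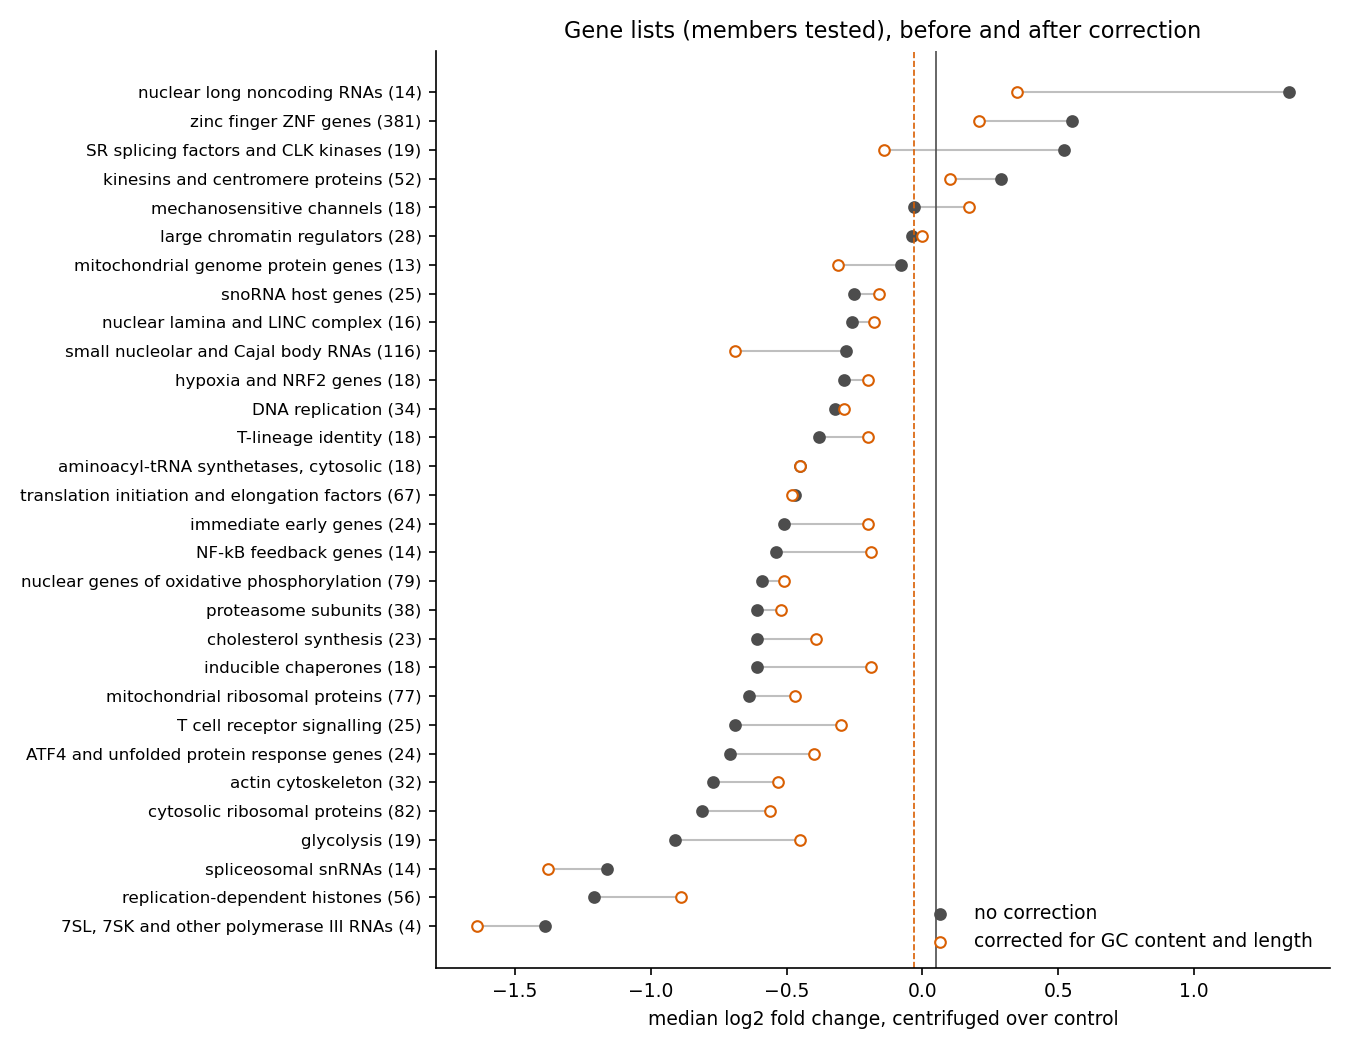
Median log2 fold change (centrifuged over control) of each gene list with at least 4 members tested, without correction (filled) and corrected for GC content and length (open), with the number of members tested in parentheses. Vertical lines mark the medians of all genes, 0.05 (solid) and −0.03 (dashed); histones move from −1.21 to −0.89 and nuclear long noncoding RNAs from 1.35 to 0.35, and the lists near 0 change sign with the scaling as given in the text.

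Kinds of genes differed too. Of 12595 protein-coding genes 41.1% rose and 48.1% fell (median −0.10), whereas 58% of 1441 pseudogenes (0.68) and 65.2% of 419 sense intronic RNAs (0.84) rose. With both corrections 54.3% of the pseudogenes (0.55) and 38.9% of the sense intronic RNAs (0.27) were upregulated. Pseudogenes share sequence with their parent genes, so that single values are uncertain. Other long noncoding genes (1624) were higher in 49.7% and lower in 21.7% of cases, and 43.3% were higher with both corrections.

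Each waiting time was also compared with the control on its own. At wait1min 7104 of 17155 genes were upregulated (41.4%) and 6882 were downregulated (40.1%), or 7160 and 6886 without library 54. At wait4min these were 7154 (41.7%) and 6972 (40.6%) of 17175 genes, and at wait15min 7171 (41.8%) and 6941 (40.5%) of 17148. As the 3 comparisons share their 4 controls, their values are only set side by side. For ASPM the log2 fold changes were 3.49, 3.37 and 3.34 in this order, for MALAT1 3.33, 3.28 and 3.25, for GAPDH −1.01, −1.03 and −1.02, and for H4C13, which differed among waiting times in the test below, −1.20, −1.41 and −1.51. List medians were −1.12, −1.23 and −1.26 for histones and 1.38, 1.34 and 1.36 for nuclear long noncoding RNAs. They lay further apart for small RNAs, with −0.67, −1.41 and −1.54 for spliceosomal snRNAs, −1.15, −1.45 and −1.67 for polymerase III RNAs, and −0.22, −0.38 and −0.34 for small nucleolar and Cajal body RNAs.

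A test among the waiting times, which does not use the controls, found 75 of 17907 genes (0.419%) to differ. In 53 of them the mean fell from wait1min over wait4min to wait15min, in 16 it was lowest at wait4min, in 4 it rose throughout and in 2 it was highest at wait4min. SNORD3A (ENSG00000263934, chromosome 17, 19188016 to 19188714), the U3 RNA, had 933, 1179, 1048 and 850 CPM at wait1min, 496, 499, 553 and 532 CPM at wait4min, and 540, 467, 481 and 387 CPM at wait15min, beside 1661 to 1871 CPM in the controls. The later waiting times overlap each other, and both lie below wait1min, which lies below the control (adjusted p = 1.52e-09 among waiting times by edgeR, quasi-likelihood with Benjamini-Hochberg adjustment). SNORA73B went from 148 ± 19.1 (SD, n = 4) at wait1min to 87 ± 3.92 and 86.7 ± 9.22 CPM, against 224 ± 8.23 CPM in the control. SCARNA5, which guides the modification of spliceosomal RNAs in Cajal bodies, had 39.1 ± 4.45, 24.9 ± 1.37 and 25 ± 2.39 CPM, and RNU4-1 had 74.4 ± 14.5, 45.8 ± 3.51 and 42.6 ± 9.49 CPM. SNORD17, SCARNA6, SNORA23 and SCARNA21 had the same order of wait1min above the later times. Such genes are short, RNU4-1 with 141 bases and SNORA23 with 182. Whether recovery of short RNAs during extraction differed between groups was not tested.

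Only 2 of the 10 genes with the smallest p among the waiting times were not small RNAs. NDUFS6, a complex I subunit, fell from 47.6 ± 2.06 at wait1min to 36.8 ± 2.19 and 35.1 ± 2.09 CPM, and H2BC20P, a histone pseudogene, rose from 12.2 ± 1.01 and 12.8 ± 0.954 to 17.6 ± 1.38 CPM at wait15min. H2BC20P was higher than in the control without correction (0.61) and had no call with both corrections (−0.20). The number of 75 genes is sensitive to single libraries, being 273 without library 53 and 42 without library 54 of wait1min. The minutes attached to each group, but not this number, rest on the titles. The column names of the deposited table call the libraries of wait1min "instant" and those of wait4min "1min".

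**Figure D5:**
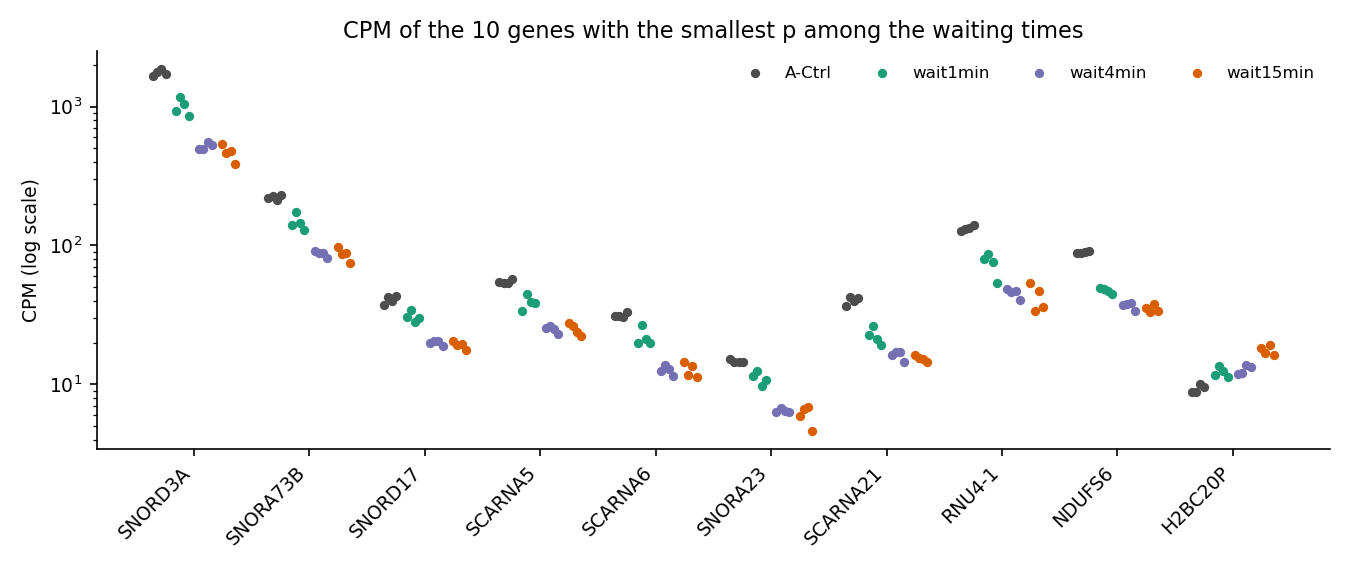
CPM (log scale, TMM-scaled) of the 10 genes with the smallest p among the 3 waiting times, each point being a library and each colour a group. In the 8 small RNAs the libraries of wait1min mostly lie between the control and the later times, as in SNORD3A, with 850 to 1179 CPM at wait1min and 387 to 553 CPM at wait4min and wait15min.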

How the data were processed

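RNA of Jurkat T cells was measured in 80 libraries, of which 16 are used here. The authors deposited raw read-pair counts per gene (STAR 2.7.3a on hg38, featureCounts on the reverse strand, uniquely assigned, Ensembl 104 annotation; the labels give featureCounts 2.0.1, the deposited header 2.0.3), without normalization. The length column deposited beside them is in another unit, the bases in the exons of a gene. Columns were assigned to groups by the sample titles; 1 broken record (3 lines, ANK2) was left out, which left 60663 genes, 58336 of them with a GC content computed from GENCODE transcripts of another release than the one counted.

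For testing, edgeR 4.0.16 (R 4.3.3) was used in its quasi-likelihood form, with TMM factors, filterByExpr with a minimum count of 10 and Benjamini-Hochberg adjustment, calling genes at an adjusted p under 0.05. The corrections were lowess curves (span 0.3) of each library's log2 CPM (prior count 2) against GC content, log2 exon length or both (3 rounds), entered as offsets. The procedure was tested on simulated data. Measures of single libraries were compared by exact permutation over all 1820 ways. Named genes were of several kinds. The 8 protein-coding and 5 other genes with the largest change in each direction were taken from called genes with no overlap between arms and a mean of at least 10 CPM in the higher arm. Likewise, 6 protein-coding genes in each direction were taken from corrected values. Of these, TPM2 had means of 2.91 and 9.28 CPM without correction, below that limit. Added were, for each of 34 gene lists, the called member of at least 10 CPM with the largest change and the most abundant member, 10 genes fixed by name, and the 10 genes with the smallest p among waiting times. The members and lists were chosen with earlier results of these data known.

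Alternatives were no filter, RLE factors, total counts only, DESeq2 1.42.0, separate group means, protein-coding genes only, the corrections, group medians or protein-coding totals for the library measures, and leaving out each library. Tables and figures were made in Python 3.11.15 (matplotlib 3.10.9, pandas 2.3.3, scipy 1.17.1, numpy 2.4.6).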

Additional observations from a re-analysis of the deposited data

Results flagged for a closer look

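In 464 groups of 4 libraries (total counts, library measures and CPM of named genes in each group), 31 held a library whose gap to its nearest neighbour was above the 95% critical value of Dixon's test. Chance gives about 1 in 20 groups. Library 54 of wait1min accounts for 14 of the 31. It was the highest of its group in the share of ribosomal protein genes (4.79%) and in CPM of CENPE (167), H4C5 (482), H4C2 (371), H4C8 (460), H4C11 (12), H4C12 (14.5), H2AC6 (461), GAPDH (3333), FDFT1 (432), SRSF2 (482) and NDUFA5 (66.2), and the lowest in GOLGA8B (27.7) and PSMA2 (11.5). Its part in these results was not tested beyond leaving it out.

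The other wait1min libraries outside their group were library 55, high in LINC01222 (25.3 CPM) and low in LCK (610) and PSMD2 (337), and library 56, low in the share of snRNAs (0.0219%) and in RN7SL4P (21.4 CPM). In wait4min library 60 was low in AKAP9 (144 CPM) and library 57 in H4C11 (8.51). In wait15min library 61 was high in CMTM1 (11 CPM), library 63 low in LMNB2 (325), and library 64 low in HSP90AB1 (1714) and ACTB (5426). Among the controls, library 51 had the most counts (41220541) and was low in GOLGA8B (4.3 CPM), library 52 was high in AL365361.1 (2.96) and low in SNORD3B-1 (19.4), and library 49 was low in LMNB2 (560) and high in SNORA23 (15.2).

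The change from the control differed among waiting times for 14 named genes, 9 of which were named only for their small p in this test (edgeR's quasi-likelihood test, 2 degrees of freedom, Benjamini-Hochberg adjustment over 17907 genes). The adjusted p was 1.52e-09 for SNORD3A, 2.38e-08 for SNORA73B and SNORD17, 7.04e-07 for SCARNA5, 1.86e-06 for SCARNA6, 3.01e-06 for SNORA23, 5.51e-06 for NDUFS6, 7.24e-05 for H2BC20P, 0.000362 for SCARNA21, 0.000388 for RNU4-1, 0.00128 for RNU4-2, 0.00354 for RN7SL1, 0.0121 for H4C13 and 0.0398 for PTPN22. The cause was not tested.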

How the results depend on the processing

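Counts of up- and downregulated genes at adjusted p alone, pooled and at each waiting time, stayed within 1.5 times the reported number under every alternative tried. Leaving out single libraries gave 7835 to 7952 upregulated and 7128 to 7339 downregulated genes pooled, 4347 to 4582 and 730 to 911 above 1 log2, 7009 to 7333 and 6632 to 6886 at wait1min, 7036 to 7377 and 6791 to 6963 at wait4min, and 7067 to 7369 and 6785 to 6930 at wait15min. Upregulation above 1 log2 was seen in 2045 genes with the correction for GC content, 2034 with both corrections and 2855 with protein-coding genes only, of which 12595 were tested in place of 18233. Downregulation above 1 log2 was seen in 1324 genes with DESeq2 (its Wald test, size factors and no prior filter, so that these cannot be told apart), 1509 with the correction for length, 1512 without a filter, 170 with protein-coding genes only and 138 with total counts only. The genes that differ among waiting times were 39 with the correction for GC content, 30 with both, and 592 without a filter. Leaving out 1 library gave from 34 to 273 of them, namely 273 without 53, 42 without 54 and 47 without 55 of wait1min, 35, 34, 38 and 36 without 57, 58, 59 and 60 of wait4min, and 37 without 62 of wait15min. The cause was not tested. Besides total counts only (0.31), the median of all genes was −0.12 with the correction for length, 0.3 without a filter and 0.18 with DESeq2, also without that filter. The 10 library measures kept their direction with group medians and when single libraries were left out, and the 8 shares also as shares of protein-coding counts.

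Signs turned for these named genes with a call in at least 1 of the settings compared; HSPA1A, without a call, went from −0.54 to 0.09 with both corrections. With the correction for GC content, PIEZO1 was at 0.46, SRSF2 0.06, MRPL42 −0.23, NDUFA5 −0.36, ZNF207 −0.75, JUN 0.27 and H2BC20P −0.22. With both corrections PIEZO1 was at 0.23, SRSF2 0.21, MRPL42 −0.53, NDUFA5 −0.59, ZNF207 −1.05, EGR1 0.04, JUN 0.37 and H2BC20P −0.20, and with length alone ZNF207 was at −0.03. Total counts only gave 0.25 for CMC1, 0.19 for PIEZO1, 0.17 for SRSF2, 0.19 for MT-CO1, 0.08 for IARS1 and 0.08 for JUN, and protein-coding genes only gave 0.04 for PIEZO1, 0.01 for SRSF2 and 0.03 for MT-CO1. Of 30 list medians, 25 moved without turning with the correction for length, such as nuclear long noncoding RNAs to 0.51, small nucleolar and Cajal body RNAs to −0.74 and kinesins and centromere proteins to 0.04, and 4 moved on leaving out control 50 or 51. List medians that turned were, with total counts only, 0.00 for the nuclear lamina, 0.23 for channels, 0.22 for large chromatin regulators, 0.18 for the mitochondrial genome and 0.01 for snoRNA hosts; with protein-coding genes only, 0.07 for channels, 0.07 for chromatin regulators and 0.03 for the mitochondrial genome; with GC content, 0.28 for channels, −0.18 for SR factors and CLK kinases and 0.26 for chromatin regulators; and with both, 0.17 for channels and −0.14 for SR factors and CLK kinases. Calls of FOS, JUN and CD14 depended on single libraries: FOS was called without control 50 (0.49) or wait15min 64 (0.41), JUN was not called without control 50, and CD14 was without control 49 (0.79). No paired analysis was possible because the groups share no replicate numbers. Genes near 1 CPM, such as FOS, are limited by depth.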
